A study of Mus musculus with 31 samples.

Results

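Kat2b and the other histone acetyltransferase genes were followed in single 2-cell mouse embryos. The 10 genes, chosen by name, were Kat2a, Kat2b, Ep300, Crebbp, Kat5, Kat6a, Kat6b, Kat7, Kat8 and Hat1, out of 20544 genes in the deposited count table, and all 10 were found there by symbol. The 31 libraries came from 16 control- and 15 SER-generated embryos, each of wild-type genotype in the labels and each sequenced alone by Smart-seq3. SER stands for sperm energy restriction and recovery, the question being whether a treatment of the sperm alone leaves a trace in the transcripts of the embryo. Sperm came from C57BL/6J males of 12 to 14 weeks, and 1 cauda epididymis of a male went into each medium. Control sperm stayed in IVF-TYH +/+ medium, which holds glucose and pyruvate. SER sperm were kept in IVF-TYH -/- medium, without these substrates, until they stopped moving after 15 to 45 min. Both were then washed back into IVF-TYH +/+ and used at about 100000 sperm per dish. The cumulus-oocyte complexes were the same in kind for both groups, from superovulated CD1 females of 8 to 10 weeks. After 4 h of coculture the eggs were moved to KSOM medium, and embryos were collected at 32 h after insemination, so all of them were C57BL/6J by CD1 hybrids fertilized in vitro. The study sampled several independent batches of embryos. The labels number the embryos within a group but do not tie an embryo to a male, a dish or a batch. The tests therefore take embryos as independent, and p-values measure the spread between these embryos and not that between batches.

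Histone acetyltransferases move the acetyl group of acetyl-CoA onto lysines of histone tails, which loosens nucleosomes and gives bromodomain proteins a place to bind. They fall into families. The GNAT family holds Kat2a (GCN5) and Kat2b (PCAF), the exchangeable catalytic subunits of the SAGA and ATAC coactivator complexes, and Hat1, which acetylates new histone H4 before it is laid down behind the replication fork. The p300/CBP pair, Ep300 and Crebbp, acetylates enhancer and promoter histones. The MYST family holds Kat5 (TIP60), Kat6a (MOZ), Kat6b (MORF), Kat7 (HBO1) and Kat8 (MOF). In the mouse the embryonic genome is switched on mainly at the 2-cell stage, while RNA stored by the oocyte is being cleared, so a transcript level at this stage is a sum of old and new RNA.

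Depth ran from 532945 to 2085222 counts per control library (median 955806.5) and from 642321 to 3088396 per SER library (median 1375557). Levels are given as CPM, the counts of a gene scaled to the same total in every library. CPM is a share of the RNA of an embryo, so a smaller contribution from 1 blastomere and less RNA of a gene in both cannot be told apart. Of 22 genes of the 2-cell zygotic burst, such as the Zscan4 and Usp17l families, 20 were found, and their summed CPM ran from 781 to 3964 in 29 embryos. Control 4, at 46.8 CPM, and SER 15, at 143 CPM, stood far below them. All 14 oocyte genes had counts, with sums of 2663 to 16626 CPM in control- and 1227 to 12695 CPM in SER-generated embryos. Cumulus cell genes summed to 1632 CPM in control 5, mainly Cyp11a1, and to 97.9 CPM or less in the other embryos. Among cumulus genes Ptx3 was at 0 in all control and Fshr in all SER libraries, and sperm genes did not exceed 30.9 CPM, with Odf1 and Smcp at 0 in all controls. In the edgeR fit of every gene with a count, 3 of 13 cumulus genes (Cyp11a1, Inha and Inhba) were called lower and 2 of 8 sperm genes (Odf1 and Smcp) higher in SER-generated embryos, and without control 5 it was 1 (Cyp11a1) and 2. Of all 17803 genes in this fit, 2.83% were called. The lists did not move as a whole. Among sperm genes not called, Prm1 (-2.22), Tnp1, Tnp2 and Prm2 had lower estimates in SER, and Akap4 and Gapdhs higher ones. Among cumulus genes not called, Ptx3, Ptgs2, Amh, Tnfaip6 and Foxl2 had higher estimates, and Vcan, Fshr, Cyp19a1, Star and Has2 lower ones. The part of cumulus and sperm RNA in the results below was not tested. Some of the results are also given without control 4, control 5 and SER 15, a choice made after seeing the data.

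Levels of different genes were compared per length, as CPM per kilobase of annotated exon (GENCODE vM21, GRCm38), over all 31 embryos. Crebbp stood highest with 48.3 ± 20.1 (SD, n = 31), and it was the highest of the 10 genes in 26 of 31 embryos. Kat6a followed with 29.5 ± 7.54 and Kat2a with 21.8 ± 7.78. Kat7 (18.4 ± 8.31), Kat8 (16.5 ± 8.97) and Ep300 (14.4 ± 7.99) lay close together below them. Kat6b had 8.78 ± 2.70, Kat5 10.96 ± 8.79, Hat1 7.21 ± 5.31 and Kat2b, the lowest, 1.57 ± 1.93. The order is that of the mean log2 level, in which Kat6b came before Kat5 although its arithmetic mean was lower. The 2 GNAT paralogues of SAGA thus stood far apart in level, Kat2a near the top of the order and Kat2b at its end.
In 4 of the 9 steps between neighbours in this order the mean difference was past an adjusted p of 0.05 (2-sided permutation test of the paired log2 difference, 100000 resamples, Benjamini-Hochberg over the 9 steps). Crebbp exceeded Kat6a by 0.50 on the log2 scale in 28 of 31 embryos (adjusted p = 0.0139), and Kat6a exceeded Kat2a by 0.66 (adjusted p = 4.05e-04). Ep300 exceeded Kat6b by 0.53 (adjusted p = 0.0142). Hat1 exceeded Kat2b by 2.69 in 27 of 31 embryos (adjusted p = 9.0e-05). The SD of these differences between embryos was 0.92, 1.27, 1.00 and 2.46, so the last alone was larger than its spread. The steps from Kat2a through Kat7 and Kat8 to Ep300, and those from Kat6b through Kat5 to Hat1, were not past the threshold, with adjusted p between 0.139 and 0.785. With the length of the longest transcript in place of all exons, Kat2a fell below Kat7 by 0.43 (adjusted p = 0.105), Ep300 was no longer above Kat6b (-0.019, adjusted p = 0.921), and Kat6b exceeded Kat5 by 0.55 (adjusted p = 0.0455).

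**Figure D1:**
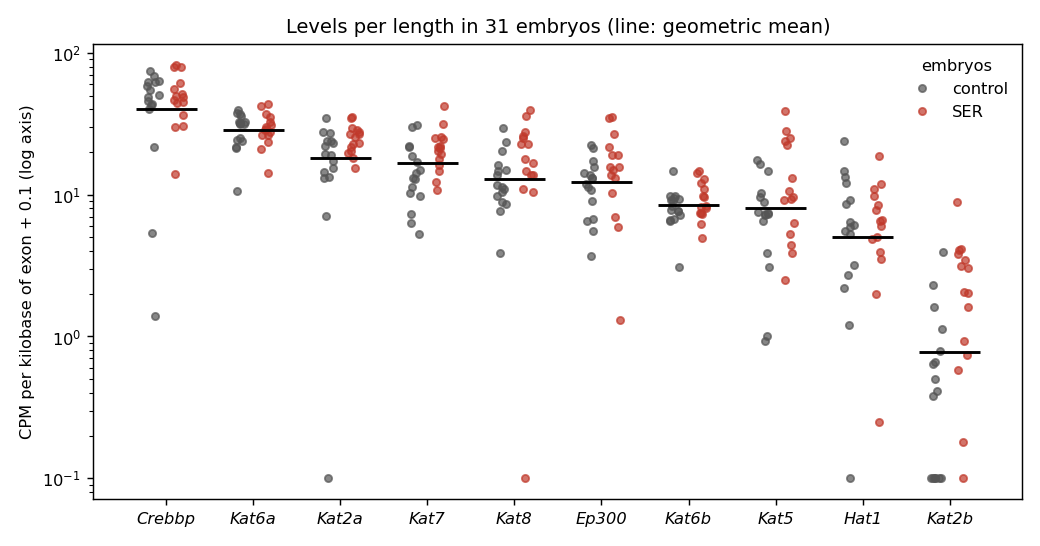
Level of each gene per embryo as CPM per kilobase of exon plus 0.1 on a log axis, with control (grey) and SER (red) embryos as points and the geometric mean of 31 embryos as a line. Crebbp is at the top and Kat2b at the bottom, where 7 of the 31 points sit at 0 counts.

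The promoters of the lowest and the highest of these genes show how unlike their start regions are. RefSeq start sites (GRCm38.p6) gave 13 promoters for 9 of the 10 genes, each of 300 bases from 250 before to 50 after the start. CpG dinucleotides numbered between 5 and 49 in these 13, against a median of 7 over 32851 promoters. The promoter of Kat2b at chr17:53566721-53567020 (plus strand) had 11 CpG, where 58.6% of all promoters held fewer, and no GC box. A second Kat2b start, with its promoter at chr17:53583876-53584175, had 6 CpG and no GC box. That of Crebbp at chr16:4213355-4213654 (minus strand) had 49 CpG, where 99.0% of all promoters held fewer, and 2 overlapping GC boxes. A GC box, GGGCGG or its reverse complement CCGCCC on either strand, is in capitals below, and 8 of the 13 promoters held at least 1, as did 35.7% of all promoters.
Kat2b: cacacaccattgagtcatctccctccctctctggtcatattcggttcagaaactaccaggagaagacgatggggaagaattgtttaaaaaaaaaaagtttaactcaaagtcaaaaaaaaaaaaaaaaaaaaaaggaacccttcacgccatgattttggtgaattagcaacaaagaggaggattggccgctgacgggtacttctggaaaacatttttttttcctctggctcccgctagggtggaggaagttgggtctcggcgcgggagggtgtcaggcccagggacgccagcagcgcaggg
Crebbp: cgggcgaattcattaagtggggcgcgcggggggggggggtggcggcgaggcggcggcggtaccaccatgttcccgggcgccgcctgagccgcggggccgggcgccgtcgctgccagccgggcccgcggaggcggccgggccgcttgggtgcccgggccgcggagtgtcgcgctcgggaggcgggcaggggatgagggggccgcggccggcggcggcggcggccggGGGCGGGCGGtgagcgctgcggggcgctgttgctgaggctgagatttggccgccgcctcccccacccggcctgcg
No measurement here bears on the use of these promoters, and the matches are a description of their letters.

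The effect of the sperm treatment on these genes was tested with edgeR (quasi-likelihood test), and an adjusted p under 0.1 counted as a difference. No gene of the 10 passed (0 of 10), and over all 8571 genes kept by the filter on low counts 0 passed (0%). At an unadjusted p under 0.05 there were 491 genes (5.73%), of which Kat5 was 1. The estimate was higher in SER-generated embryos for 9 of the 10 genes, Hat1 being the exception, against 52.7% of all 8571 genes. Their median log2 fold change was 0.42, against 0.02 over all 8571. In mean CPM, likewise, 9 of the 10 were higher with SER sperm, as were 55.9% of 8572 genes. Kat2b was too low for the filter, so its value comes from a second fit, over the 17803 genes that had any count, in which 2.83% passed the threshold and 10.7% had an unadjusted p under 0.05. The other 9 genes passed the filter. DESeq2 called 45 of the 7436 genes to which it gave an adjusted p, and 0 of the 10. Kat2b had no adjusted p in that fit, so it could not be called there. Limma voom with sample quality weights called 2, Kat7 in a fit that called 9.89% of the 8571 genes and Kat2b in one that called 0.455% of the 17803 genes with any count.
The plain difference in mean CPM was also tested (2-sided permutation test, 100000 resamples). Kat2b, Kat2a, Kat7 and Kat8 had an unadjusted p under 0.05, each higher in SER-generated embryos, as did 7.82% of 8572 genes in either direction and 4.74% with the higher mean in SER. After Benjamini-Hochberg adjustment over these 8572 genes 0 remained, and the adjusted p of the 10 genes ran from 0.438 to 0.979. Summed over the 10 genes, the level per kilobase had a median of 159 (70.7 to 197) in control- and 197 (160 to 253) in SER-generated embryos. The lowest sum, 70.7, was that of control 3. This library also had the lowest CPM of all embryos for Kat2a, Crebbp, Kat5, Kat6a and Kat6b, and the highest for Hat1. Crebbp, with a mean of 48.3, weighs most in this sum. The difference in the sum was not tested, and no such sum was taken for other genes.

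**Figure D2:**
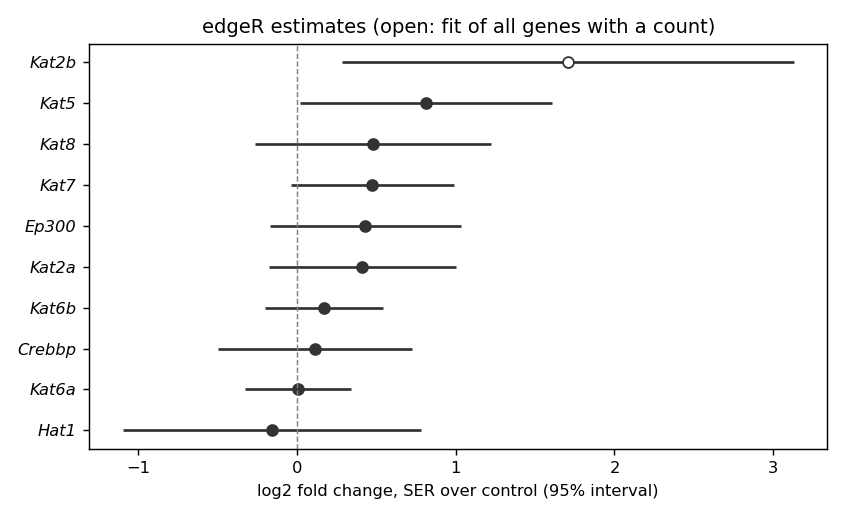
Log2 fold change of each gene, SER over control, from edgeR, with the 95% confidence interval as a line. The point of Kat2b, at 1.71, is open because it comes from a wider fit that kept each gene with a count, and the intervals of Kat2b and Kat5 alone lie above 0.

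Kat2b lies at chr17:53566861-53672720 on the plus strand. Its level was 0 to 18.7 CPM with a median of 1.73 in control- and 0 to 42.6 CPM with a median of 9.60 in SER-generated embryos. The means were 3.46 ± 5.08 (SD, n = 16) and 12.1 ± 10.9 (SD, n = 15) CPM, a ratio of 3.50. The groups overlapped, with 13 of the 15 SER embryos above the control median and 3 above control 2, the highest control. Counts behind these values were few, at most 98 in a library (SER 13, 42.6 CPM) and 4 at the median. The difference of 8.64 CPM had an unadjusted permutation p of 0.00391 and an adjusted p of 0.438. The log2 fold change by edgeR was 1.71 (SE 0.71, 95% interval 0.28 to 3.13, adjusted p = 0.285). This gene was singled out by the study on these same embryos, so its difference here is not independent evidence.
Single embryos moved the estimate of Kat2b without changing its sign. Left without SER 13, the estimate was 1.42 on the log2 scale (adjusted p = 0.462), and left without control 2 it was 2.24 (adjusted p = 0.118), the ends of the range over all 31 embryos left out in turn. Without control 4, control 5 and SER 15 it was 1.90 (adjusted p = 0.220). Control 5, the library with the cumulus cell RNA, had 10.7 CPM of Kat2b, the second highest control value, and the part of cumulus RNA in it was not tested. With the log2 library size as a covariate the estimate was 1.43 (adjusted p = 0.520), and limma voom gave 2.51 (adjusted p = 0.0447). Over all 31 embryos, Kat2b had a Pearson r of 0.35 and a rho of 0.38 with the log2 library total (permutation p of 0.0569 and 0.0382, adjusted p for r = 0.676). Within groups r was 0.51 in control- and -0.10 in SER-generated embryos (adjusted p of 0.234 and 0.910). The part of depth in the difference between the groups was not tested.
Kat2b was detected, with at least 1 count, in 14 of the 15 SER embryos and in 10 of the 16 controls (2-sided Fisher's exact test, p = 0.0829). SER libraries were deeper, and after thinning all libraries to the smallest total the numbers were 13 and 10 (exact p = 0.220). The SER embryo without a count, SER 12, was not a shallow library. With 2559039 counts, 0 allows up to 1.17 CPM there, whereas in the 6 control embryos at 0 it allows up to between 1.93 and 5.63 CPM (3 counts, counting error only). The exact p was 0.0185 without SER 12 and 0.169 without any 1 of the 6 controls at 0. By a profile of log2 CPM over 31 embryos, the tested genes most like Kat2b were Lzts1 (Pearson r = 0.69), Ddias (0.68), Atp7a (0.67), Kmt5a (0.66), a histone H4 methyltransferase, and Usp33 (0.64), values that share libraries and depth and are given as a description.

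**Figure D3:**
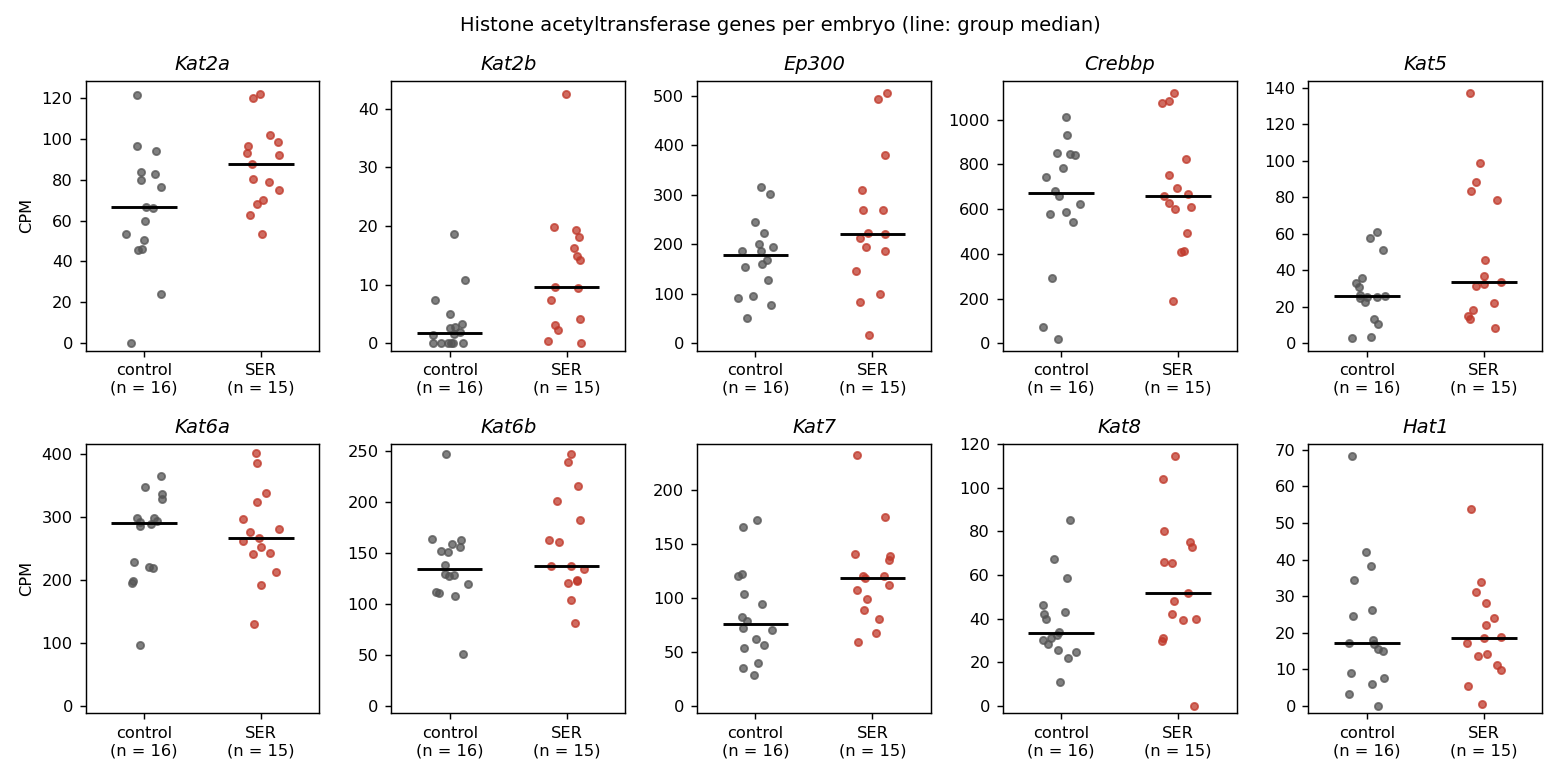
CPM of each gene in every embryo, control in grey (n = 16) and SER in red (n = 15), with the group median as a line and a separate vertical scale per gene. The groups overlap for each of the 10 genes, and for Kat2b the medians are 1.73 and 9.60 CPM.

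Kat2a, the paralogue of Kat2b (chr11:100704746-100712465, minus strand), ran from 0 to 121 CPM with a median of 66.6 in control- and from 53.4 to 122 CPM with a median of 87.8 in SER-generated embryos. The groups overlapped nearly throughout, although 13 of the 15 SER embryos exceeded the control median. Means were 65.4 ± 29.4 (SD, n = 16) and 86.7 ± 19.8 (SD, n = 15) CPM (permutation test, unadjusted p = 0.0255, adjusted p = 0.587). By edgeR the log2 fold change was 0.41 (SE 0.29, adjusted p = 0.935). Control 3 was at 0, where its 1025339 counts allow up to 2.93 CPM, and was the single embryo of 31 without Kat2a. Relative to Kat2a, Kat2b counts made up a median of 3.94% of the pair in control- and 10.7% in SER-generated embryos. The mean log2 ratio of Kat2b to Kat2a differed by 0.91 between the groups, with SDs of 2.49 (control) and 2.10 (SER), less than embryos of a group differ from each other (permutation test, p = 0.287, adjusted p = 0.573 over 3 pairs of paralogues). Without control 3 it differed by 1.36 (adjusted p = 0.196).
Hat1 (chr2:71388958-71441622, plus strand) was the gene with the lower estimate in SER-generated embryos. It ran from 0 to 68.3 CPM with a median of 17.1 in control- and from 0.435 to 53.8 CPM with a median of 18.5 in SER-generated embryos. The groups overlapped throughout, and the medians stood in the opposite order to the means of 21.4 ± 17.5 and 20.2 ± 13.1 CPM. Its log2 fold change was -0.16 (SE 0.46, 95% interval -1.10 to 0.78, edgeR adjusted p = 0.983). The highest value was that of control 3, and without this embryo the log2 fold change was 0.11. An interval this wide does not exclude a change of either sign.

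Ep300 (chr15:81585351-81652077, plus strand) and Crebbp (chr16:4081328-4213997, minus strand) encode p300 and CBP, the coactivators that many transcription factors recruit and that acetylate lysines of histone H3 at enhancers. Ep300 ran from 51.3 to 316 CPM with a median of 178 in control- and from 17.1 to 505 CPM with a median of 221 in SER-generated embryos. The highest 3 values were in SER-generated embryos, and so was the lowest, in SER 15. Means were 174 ± 75.5 (SD, n = 16) and 241 ± 139 (SD, n = 15) CPM (permutation test, unadjusted p = 0.104), with a log2 fold change of 0.43 (SE 0.30, edgeR adjusted p = 0.935). Without SER 15 the permutation p for Ep300 was 0.0354.
Crebbp ran from 17.6 to 1012 CPM with a median of 672 in control- and from 189 to 1118 CPM with a median of 657 in SER-generated embryos. The groups had nearly the same middle, and the low tail was made of a few embryos. Its log2 fold change was 0.12 (SE 0.30, 95% interval -0.49 to 0.73, edgeR adjusted p = 0.982). Crebbp was at 17.6 CPM in control 3, 71.8 CPM in control 1 and 291 CPM in control 2, while the other 13 control embryos had at least 541 CPM. In these 3 embryos, and in SER 12 and SER 15, another of the 10 genes stood highest per length. It was Kat8 in control 1 and SER 12, Kat2a in control 2, Hat1 in control 3 and Kat7 in SER 15.
Ep300 did not share these low values. It was 316 CPM in control 1, the highest control value, 223 CPM in control 2 and 127 CPM in control 3. As a share of the counts of the pair, Ep300 made up 81.5% in control 1 and 87.8% in control 3, and at most 43.4% in any other control embryo, with a control median of 21.2%. In SER-generated embryos the share ran from 8.32% to 40.2% with a median of 26.0%. Counts of Ep300 thus outnumbered those of Crebbp in 2 embryos, both controls. Controls 1, 2 and 3 also had high sums of zygotic burst genes (2934 to 3964 CPM), and control 3 the highest oocyte sum, and the part of these in the low Crebbp counts was not tested. SER 1 had a burst sum in the same range, 3113 CPM, and its Crebbp was 1085 CPM. Control 1 and control 3 had 1628948 and 1025339 counts, both above the control median. Over all 31 embryos, Crebbp had a Pearson r of -0.28 and a rho of -0.53 with the log2 library total (permutation p of 0.127 and 0.00219, adjusted p for r = 0.786). Within groups r was -0.38 in control- and -0.58 in SER-generated embryos (adjusted p of 0.385 and 0.654), with rho of -0.59 and -0.625. The part of depth in the low Crebbp counts was not tested. The mean log2 ratio of Ep300 to Crebbp differed by -0.11 between the groups (permutation test, adjusted p = 0.824), with an SD of 1.76 in control- and 0.81 in SER-generated embryos. The sign turned without control 1 (0.13), control 3 (0.18) or SER 15 (0.01). The tested genes most like Crebbp over the 31 embryos were Rest (Pearson r = 0.91), Syne2 (0.90), Srrm2 (0.89), Ppard (0.89) and Dek (0.88), a description over embryos that share the same low points.

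**Figure D4:**
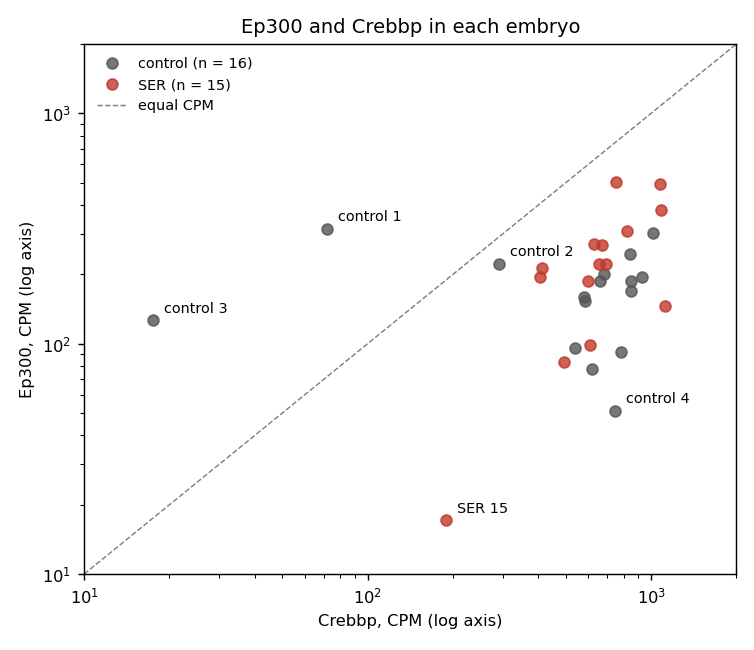
CPM of Ep300 against CPM of Crebbp in each embryo, both on log axes, with control embryos in grey (n = 16), SER embryos in red (n = 15) and a dashed line of equal CPM. Control 1 and control 3 lie above the line, where Ep300 exceeds Crebbp, and the other 29 embryos lie below it.

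Among the MYST genes, Kat5, the catalytic subunit of the TIP60/NuA4 complex (chr19:5603014-5610237, minus strand), ran from 2.93 to 61.0 CPM with a median of 25.6 in control- and from 8.40 to 137 CPM with a median of 33.4 in SER-generated embryos. In 5 SER embryos the level was above the highest control value. These were SER 10, 12, 13, 14 and 15, and each of these libraries held 2158512 counts or more. Means were 28.1 ± 17.2 (SD, n = 16) and 49.5 ± 38.4 (SD, n = 15) CPM (permutation test, unadjusted p = 0.0502). The highest value was that of SER 15. With each embryo left out in turn, the difference in means ran from 15.1 to 24.3 CPM (permutation test, unadjusted p between 0.0261 and 0.102). The log2 fold change was 0.81 (SE 0.39, 95% interval 0.02 to 1.61, edgeR unadjusted p = 0.0451, adjusted p = 0.868). With the log2 library size as a covariate the Kat5 estimate was 0.26, and within SER-generated embryos its log2 level had a Pearson r of 0.64 with the log2 library total (rho = 0.61, permutation p of 0.0122 and 0.0168, adjusted p = 0.654 over 8572 genes, of which 0% passed). In control-generated embryos this r was -0.26 (permutation p = 0.329, adjusted p = 0.583), and over all 31 it was 0.32 (permutation p = 0.0807, adjusted p = 0.717). Rnaseh2c, on the opposite strand, covers 426 of the 3509 exon bases annotated for Kat5, and with the strand setting of the counting not given, reads there could belong to either gene.
Kat7 (chr11:95274259-95310246, minus strand), the catalytic subunit of HBO1 complexes, ran from 28.8 to 172 CPM with a median of 75.3 in control- and from 59.2 to 233 CPM with a median of 119 in SER-generated embryos. The groups overlapped, with 13 of the 15 SER embryos above the control median. Means were 84.8 ± 43.0 and 120 ± 43.4 CPM (permutation test, unadjusted p = 0.0303, adjusted p = 0.597), and the log2 fold change was 0.48 (SE 0.25, 95% interval -0.04 to 0.99, edgeR adjusted p = 0.869). Limma voom gave 0.61 (adjusted p = 0.0721), which is past the threshold.
Kat8 (chr7:127912516-127925837, plus strand) encodes MOF, the histone H4 acetyltransferase of the MSL and NSL complexes. It ran from 10.9 to 85.3 CPM with a median of 33.2 in control- and from 0 to 114 CPM with a median of 51.5 in SER-generated embryos. The groups overlapped, 12 of the 15 SER embryos exceeded the control median, and the embryo at 0 was SER 13, a library of 2300140 counts in which 0 allows up to 1.30 CPM. SER 13 was also the embryo with the highest Kat2b value and the lowest Hat1 value of the SER group, 0.435 CPM. The log2 fold change of Kat8 was 0.48 (SE 0.37, edgeR adjusted p = 0.935), and the permutation test gave an unadjusted p of 0.0455 and an adjusted p of 0.637. Prss8, on the opposite strand, covers 122 of the 2891 exon bases of Kat8.
Kat6a (chr8:22859535-22943259, plus strand) and Kat6b (chr14:21481434-21672478, plus strand), the paralogous catalytic subunits of the MOZ/MORF complexes, had low coefficients of variation in both groups. Kat6a ran from 96.6 to 365 CPM (median 291) in control- and from 130 to 401 CPM (median 267) in SER-generated embryos, and Kat6b from 50.7 to 246 CPM (median 134) and from 81.6 to 247 CPM (median 137). Neither set of medians was farther apart than the spread between embryos. The coefficient of variation was 26.1% and 25.8% for Kat6a and 29.3% and 31.4% for Kat6b in control- and SER-generated embryos, with 6.41% and 5.30%, and 8.94% and 6.98%, to be had from counting error alone. Kat2a had 45.0% in control- and, lower than either, 22.8% in SER-generated embryos. For comparison it was 147% and 90.2% for Kat2b, where counting error alone gives 56.5% and 25.2%. The log2 fold changes were 0.01 (SE 0.17, 95% interval -0.33 to 0.34) for Kat6a and 0.17 (SE 0.18, 95% interval -0.20 to 0.54) for Kat6b, with edgeR adjusted p of 1.00 and 0.958. Kat6a made up over 50% of the counts of the pair in 30 of the 31 embryos, and the log2 ratio of Kat6a to Kat6b differed by -0.15 between the groups (permutation test, adjusted p = 0.573).

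The spread between embryos within a group was also compared, as the mean absolute deviation of log2(CPM + 1) from the group median. Over 8572 genes 0 differed between the groups at an adjusted p under 0.05 (0%), 317 (3.70%) did at an unadjusted p under 0.05, and 53.6% had the lower value in SER-generated embryos. None of the 10 genes was among the 317. For Kat2a it was 0.27 with SER against 0.77 with control sperm (permutation test, unadjusted p = 0.0980, adjusted p = 1.00), and control 3, at 0, is part of the control value. Crebbp had 0.45 against 0.81 and Ep300 0.76 against 0.53 (permutation test, unadjusted p of 0.419 and 0.435, adjusted p = 1.00).

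The level of each gene was correlated with the summed CPM of the 20 zygotic burst genes. Whether this sum follows the extent of genome activation or the stage an embryo had reached was not tested. Of 8572 genes, 36.2% passed an adjusted p of 0.05 over all 31 embryos (permutation test, 100000 resamples), and of the 10 histone acetyltransferase genes 1 did, Ep300. Its Pearson r was 0.69 (permutation p = 0.00042, adjusted p = 0.00356) and its Spearman rho 0.52 (p = 0.00303). Control 4 and SER 15 lie far below the other embryos on this measure, and without them r was 0.38 (permutation p = 0.0418). Without control 5 too it was 0.37 (adjusted p = 0.145), so the relation past the threshold rested on these embryos. Within groups r was 0.67 in control- (adjusted p = 0.0347, where 14.9% of genes passed) and 0.79 in SER-generated embryos (adjusted p = 0.117, where 0.513% passed), and without the farthest 2 embryos of each group it was 0.21 and 0.22.
Kat2b had r = 0.34 (permutation p = 0.0534, adjusted p = 0.109) and rho = 0.46 (p = 0.0107), and r = 0.37 without control 4 and SER 15 (p = 0.0493). Within groups its r was 0.14 in control- and 0.59 in SER-generated embryos (adjusted p of 0.747 and 0.136). For Crebbp r was -0.13 and rho -0.16 over all embryos (permutation p of 0.385 and 0.383, adjusted p = 0.487). Within groups r was -0.41 in control- (permutation p = 0.109, adjusted p = 0.239) and 0.66 in SER-generated embryos (permutation p = 0.0294, adjusted p = 0.147), opposite in sign, a difference that was not tested. Without the farthest 2 embryos of each group these were -0.58 and 0.41. Without control 4 and SER 15 its r was -0.45 (permutation p = 0.00945), and without control 5 as well it was -0.48 (adjusted p = 0.0354). This set of embryos was chosen after seeing the data, and the share of all genes that passed in it is not given. With 36.2% of genes past the threshold over all 31 embryos, the value is not read as particular to Crebbp. Controls 1 to 3 were points of high burst sum and low Crebbp, and SER 1 was one of high burst sum and high Crebbp. The other 7 genes had r between -0.21 and 0.14 over all embryos and adjusted p of 0.355 or more. Within groups their adjusted p was 0.127 or more. Opposite signs were not particular to Crebbp. For Kat6a r was -0.19 in control- and 0.69 in SER-generated embryos, and -0.68 and 0.28 without the farthest 2 of each group. For Kat2a it was -0.02 and 0.56. Kat8 and Hat1 were positive in control- and negative in SER-generated embryos, and Kat5, Kat6b and Kat7 negative in both.

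**Figure D5:**
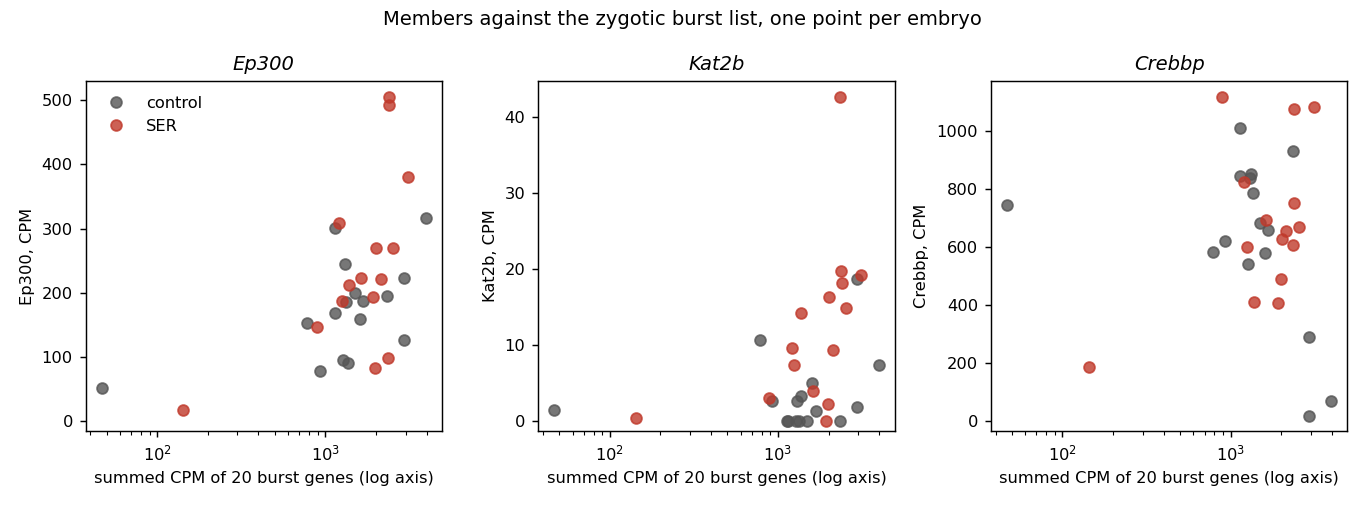
CPM of Ep300, Kat2b and Crebbp against the summed CPM of 20 zygotic burst genes on a log axis, with 1 point per embryo (control grey, SER red). Control 4 at 46.8 and SER 15 at 143 summed CPM lie far to the left of the other 29 embryos.

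Acetyltransferases work inside complexes, and the genes of their partners were taken from 9 lists of 122 genes, 117 of them tested. In edgeR's test 0 of the 117 passed the threshold, 3 had an unadjusted p under 0.05, and the estimate was above 0 (toward SER) for 75 and below 0 for 42. These are 2.56% with such a p and 64.1% with a higher estimate, against 5.73% and 52.7% of all 8571 genes. The lists were chosen with results of these embryos known and are described by counts only.
The SAGA and ATAC subunits, partners of Kat2a and Kat2b, had 16 higher and 7 lower estimates among 23 tested, with a median log2 fold change of 0.18 against 0.02 over all genes. The smallest p in it belonged to Taf10, a histone-fold subunit shared by SAGA and TFIID, whose log2 fold change was -0.67 (SE 0.19, adjusted p = 0.403), and to Eny2, a subunit of the SAGA deubiquitinase module, with -0.81 (SE 0.36, adjusted p = 0.809). Both of these stood opposite in sign to the median of their list. The TIP60/NuA4 subunits, partners of Kat5, had 10 higher and 5 lower of 15 (median 0.13), with Yeats4 at -0.33 (SE 0.17) and Mbtd1 at 0.19 (SE 0.16). The MOZ/MORF and HBO1 subunits had 8 higher and 1 lower of 9 (median 0.14), with the scaffold Brpf3 at 0.45 (SE 0.27) and Jade2 at 0.21 (SE 0.30).
Partners of Kat8 in MSL and NSL had 9 higher and 2 lower of 11 (median 0.10), with Ogt, the O-GlcNAc transferase, at 0.31 (SE 0.34) and Kansl3 at 0.17 (SE 0.27). The coactivator partners of p300 and CBP had 7 higher and 3 lower of 10 (median 0.17), with the steroid receptor coactivators Ncoa2 at 0.23 (SE 0.18) and Ncoa3 at 0.17 (SE 0.16). The partners of Hat1, histone chaperones in the main, had 3 higher and 2 lower of 5 (median 0.02), with Rbbp4 at 0.48 (SE 0.26) and Asf1a at -0.40 (SE 0.29), and this median was below 0 without any 1 of 10 embryos, down to -0.30 without SER 15. For the genes named from these 5 lists the adjusted p was 0.869 or more.
Genes of acetyl-CoA supply stood on the other side, with 2 higher and 8 lower of 10 tested and a median of -0.28, where 52.7% of all genes had a higher estimate. Named by the same rule, Pdhx, a component of the pyruvate dehydrogenase complex, stood at -0.59 (SE 0.27, adjusted p = 0.826) and Acat1, a mitochondrial thiolase, at -0.27 (SE 0.20, adjusted p = 0.935). Neither passed the threshold, and Acss1 and Acss2, which make acetyl-CoA from acetate, were too low to be tested. A list of other acetyltransferases, not all of which act on lysines, had 4 higher and 7 lower of 11 (median -0.08). In it Taf1 stood at 0.53 (SE 0.32) and the cohesin acetyltransferase Esco1 at -0.21 (SE 0.17). The readers of acetyl-lysine, mostly bromodomain proteins, had 16 higher and 7 lower of 23 (median 0.19), with Phip at -0.47 (SE 0.25) and Cecr2 at 0.27 (SE 0.17). None of these lists had a member past the threshold in either direction.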

How the data were processed

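RNA of single embryos was measured by Smart-seq3, in which reads of the 5′ end carry a molecular identifier and internal reads do not. Per the study's methods and the submitters' processing notes, the authors aligned reads with STAR to mm10, removed duplicates with UMI-tools and Picard, and assigned reads to genes with featureCounts. The values the authors deposited are whole-number counts for 20544 genes, without normalization. Tool versions, annotation and strand setting are not given in the sources used here. The study corrected for batches with ComBat-seq before DESeq2, and since the labels name no batch, that step was left out.

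From the deposited counts, groups were compared with edgeR 4.0.16 (R 4.3.3) by the quasi-likelihood test with TMM, edgeR's filter on low counts (filterByExpr, minimum count 10, minimum total 15), and Benjamini-Hochberg adjustment over all 8571 genes, at the adjusted p of 0.1 that the study used. The SE was worked back from the test, as the absolute log2 fold change over the square root of its F statistic. The 95% confidence intervals were built from this SE. For the 10 genes, an interval that leaves out no change therefore restates an unadjusted p under 0.05. Permutation tests drew 100000 resamples. Log levels used log2(CPM + 1), levels per length log2(CPM per kilobase + 0.1), and paralogue ratios counts + 0.5. Counting error is a lower bound, since internal reads carry no identifier. Alternatives were DESeq2 1.42.0 and its size factors, limma 3.58.1 voom with sample quality weights, other filters, the library size or replicate number as a covariate, thinned counts, 3 clusters found by k-means on the 1000 most variable genes, which are not the authors' batches, ComBat-seq (sva 3.50.0) on these, other pseudocounts and lengths, and each embryo left out once. The genes, lists and tests were chosen with earlier results of these data known. Named were all 10 genes, of each partner list the genes past the threshold or otherwise the 2 with the smallest p, and the 5 genes most like Kat2b and like the highest gene per length. The test was tried on simulated counts before use. Promoters came from RefSeq on GRCm38.p6 and positions from GENCODE vM21 on GRCm38, the build named mm10 in the notes.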

Additional observations from a re-analysis of the deposited data

How the results depend on the processing

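The number of genes called between the groups, 0 in the main comparison, was 504 without a filter, 45 with DESeq2, 848 with limma voom, 41 with the estimated clusters in the model, 144 with ComBat-seq on these clusters and DESeq2, and 67 in the largest estimated cluster alone (11 control- and 10 SER-generated embryos). Of the 10 genes, 0 were called in each of these except limma voom, with 2. Partner genes called were 0, and 1, 16, 1 and 1 with DESeq2, limma voom, the clusters and ComBat-seq with DESeq2. Over all genes these fits called 45 of 7436, 848 of 8571 (9.89%), 41 of 8571 and 144 of 12949. With the replicate number as a block, 0 genes were called, and the log2 fold change of Kat2b was 2.16 (adjusted p = 1.00). The numbers did not pair the embryos, with 8 of 15 same-numbered pairs correlated over 0.1 (range -0.35 to 0.48). With each embryo left out in turn, calls stayed at 0 over all genes, the 10 genes and the partner lists. DESeq2 gave Kat2b 1.69 with no adjusted p.

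Genes of the 10 with an unadjusted p under 0.05 for CPM, 4, were 2 on TMM-scaled library sizes, 1 on thinned counts, 2 in the largest cluster, and 2 to 5 with embryos left out, with 2 without control 13. The share over all genes, 7.82% of 8572, was taken in the main setting alone. The counts in the other settings thus have no share to be read against. The p of Kat2a and Kat2b stayed under 0.05 with each embryo left out. That of Kat8 rose above 0.05 without any 1 of 17 embryos (control 5 to 14, SER 1, 7, 9 to 12 and 15). That of Kat7 rose above 0.05 without any 1 of 5 (control 3, 13 and 16, SER 5 and 15). That of Kat5 came under 0.05 without any 1 of 12 (control 8, 12 and 14, SER 1 to 8 and 11). Detection of Kat2b differed by 45.5 percentage points in the largest cluster (Fisher's exact p = 0.0351), and by 26.7 to 37.5 with embryos left out (p between 0.0185 and 0.169). The difference in log2 ratio ran from 0.73 to 1.36 for Kat2b to Kat2a, from -0.26 to 0.18 for Ep300 to Crebbp and from -0.23 to -0.07 for Kat6a to Kat6b. No gene of the 10 differed in spread under any alternative (0 with embryos left out), and none was called for the zygotic burst in the largest cluster (0).

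Directions turned as follows, with no call involved and the cause not tested. The log2 fold change of Kat6a was -0.033 with limma voom, and -0.0065 and -0.010 with the clusters in the model and with ComBat-seq. That of Kat8 was -0.050 with block and library size, and that of Hat1 0.46 with limma voom. The difference in spread was -0.12 for Kat2b without control 4, control 5 and SER 15, 0.021 for Kat6a on TMM-scaled sizes, 0.073 for Hat1 on thinned counts, and -0.72, -0.26 and -0.088 for Kat2b, Kat5 and Kat8 in the largest cluster. By the longest transcript Kat2a stood -0.43 from Kat7 and Ep300 -0.019 from Kat6b. Correlations with the burst without the same 3 embryos, and in the largest cluster, were -0.20 and -0.26 for Kat2a, -0.34 and -0.36 for Kat6a, 0.35 and 0.086 for Kat7, and 0.040 and 0.31 for Kat8, which was 0.011 on thinned counts. With embryos left out, log2 fold changes ran from -0.054 to 0.054 for Kat6a and from -0.37 to 0.11 for Hat1, mean CPM differences from -6.23 to 15.5 for Kat6a and from -3.66 to 1.87 for Hat1, and spread differences from -0.15 to 0.14 for Kat2b and from -0.081 to 0.058 for Kat6a. List medians turned for the Hat1 partners under 8 alternatives (-0.38 to -0.061) and 10 embryos left out (range of all, -0.30 to 0.18), for SAGA and ATAC (-0.16), MOZ/MORF and HBO1 (-0.17) and other acetyltransferases (0.092) with block and library size, and for TIP60/NuA4 with library size (-0.040) or limma voom (-8.4e-04). Depth limits Kat2b most, whose median count was 4.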
